A study of Rattus norvegicus with 6 samples.

Results

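The cytosolic ribosomal protein genes were taken as the rows of the gene count table whose rat symbol begins with Rpl or Rps followed by a number and, optionally, an a, l or x and a further number, together with Rplp0, Rplp1, Rplp2 and Rpsa. This rule uses names and no measured value, and it found 91 of 17771 listed genes. Of these, 73 carry the plain symbol of a ribosomal protein and 18 carry an l suffix, which marks a gene named for its likeness to another. The RNA was sequenced in bulk from corneas of Wistar rats into which a cornea of a Sprague-Dawley (SD) donor had been grafted. The recipients received resveratrol, a plant polyphenol, or saline by intraperitoneal injection each day, and the corneas are from day 7. There are 3 libraries of each treatment, the saline libraries are called control, and all 6 come from grafted eyes. The labels give no dose, age, sex or pooling of corneas, and ungrafted corneas were not analysed here. Between 35068936 and 37460756 counts were assigned to genes in each library. Nothing in the labels ties each library to a rat of its own. The p-values below therefore weigh the groups against the spread between samples alone, and part of that spread may be technical.

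Each ribosome has a small and a large subunit, and each subunit is a core of ribosomal RNA bound by many different proteins, most of them used in equal numbers. Rps genes encode proteins of the small subunit and Rpl genes those of the large one, while Rplp0, Rplp1 and Rplp2 form the stalk of the large subunit that recruits translation factors. Ribosomal protein messenger RNAs in mammals characteristically begin with a run of pyrimidines, the 5' terminal oligopyrimidine (TOP) motif, through which the TOR kinase and the RNA-binding protein Larp1 control their translation and stability. In the cornea, the epithelium renews itself throughout life and depends on continued protein synthesis.

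The start sites are shown because a pyrimidine run there is the sequence feature by which these genes are known to be controlled together. Of the 91 genes, 67 matched 1 entry of the RefSeq promoter table (build GRCr8), 1 (Rps27a) matched more than 1, and 23 matched none. Each line below gives 30 bases, 20 before the annotated start and 10 from it, and capitals mark an unbroken run of at least 7 C or T that reaches the stretch from 5 bases before to 10 bases after the start. The genes are a pair of stalk genes, the 3 genes with the smallest p, Rpl41 with the highest level per length, and Rpl37 and Rpl7l1, whose fitted differences were above 0.
Rplp0 (chr12:46718381-46718410, minus strand): ctggtgaccgcaccgcaCTTCTCTCgccag
Rplp1 (chr8:71290863-71290892, minus strand): tgcgcgcaggcgcatgtgaTCCTTTCCTCa
Rpl12 (chr3:36661920-36661949, plus strand): tgggcggagcaacatccgTCTTTTCggctt
Rps21 (chr3:187724018-187724047, plus strand): tggaagaacgagccaCTTCCTTTCTgtgtt
Rps28 (chr7:15311324-15311353, minus strand): aaatggcatcccctgctcacgtgaCTCCTC
Rpl41 (chr7:1563488-1563517, minus strand): gaaggggcggctcggaagtgacgacaccaa
Rpl37 (chr2:55942925-55942954, plus strand): ggaagtggtaggcgtaCTTTCTCTTCCggt
Rpl7l1 (chr9:21695698-21695727, plus strand): gtggaagctgcagatgcattgtgggaagcc

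The run of Rps28 goes on past the last base shown, to 9 bases in all. Rpl41 and Rpl7l1 had no run of that length at the annotated start. A run of at least 8 C or T touching this stretch was found in 38 of the 67 ribosomal protein promoters (56.7%), in 9.96% of 10100 promoters of other tested genes and in 10.4% of all 24206 promoters in the table. The longest run, of 21 bases, was in Rps23. In the 300-base promoters, which span 250 bases before to 50 after the start, the letters CTTCCG on either strand occurred in 56.7% of the ribosomal protein promoters, in 29.8% of those of other tested genes and in 17.8% of all promoters. The TATA-box letters TATAAA were in 11.9%, 7.09% and 14.3% in the same order, and the GC-box letters GGGCGG in 52.2%, 61.8% and 36.0%. For both of these the ribosomal protein promoters lay between the other tested genes and all promoters. In 22 promoters the pyrimidine run and CTTCCG occurred together, and where they overlap a single stretch of bases counts for both. These are matches of letters in an annotation of GRCr8, a build other than that named for the deposited files, and do not show use of a site.

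As a group, the ribosomal protein genes were among the most highly expressed genes of the grafted cornea. Their levels are given per length as FPKM, a count scaled by gene length and by the total of its library. With 91 genes of 17771, they held 10.4% to 11.9% of the summed FPKM and 3.47% to 4.05% of the counts in a library. On the FPKM scale 70 of the 91 averaged at least 300, and the first 6 in order were Rpl41, Rplp0, Rplp1, Rps29, Rpsa and Rps18. Rpl41, a very short basic peptide of the large subunit, averaged 1864 ± 147 FPKM (SD, n = 6 libraries). Rplp0 averaged 1778 ± 154 and Rplp1 1672 ± 117 FPKM. Rpl41 and Rplp0 differed by less than 1 SD, as did Rplp0 and Rplp1. Rps29 followed, lower by more than either SD, at 1297 ± 76.9 FPKM, Rpsa, which also serves as a laminin receptor, at 1108 ± 67.1 and Rps18 at 1095 ± 74.1. Rpsa and Rps18 again differed by less than 1 SD.

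At the other end, 5 genes did not pass the filter on low counts and were not tested: Rpl3l, Rpl22l2, Rpl30l1, Rpl31l2 and Rps19l1. They had at most 45 counts each over the 6 libraries. Rpl3l, a paralog of Rpl3 known from heart and skeletal muscle, had 2, 3 and 0 counts in control and 1, 0 and 0 in resveratrol. Rpl37, a gene with a plain symbol, was listed at only 24.0 ± 2.38 FPKM in control and 24.9 ± 0.648 in resveratrol (SD, n = 3). The sources used here do not state how reads shared between a gene and its processed copies were counted, so the levels of genes with near-identical copies are uncertain. The count table lists Rps9l1 and Rps19l2 at 575 ± 34.6 and 652 ± 54.8 FPKM in control, and RefSeq gives each of these names both to a gene of its own and as a synonym of Rps9 or Rps19, so it was not settled which gene they stand for.

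With resveratrol, most ribosomal protein genes had slightly lower means than with saline, none passed the test, and the direction was not shared by all libraries. The median fitted log2 fold change (resveratrol minus control) of the 86 tested genes was -0.10, 93.2% of the control level, beside -0.008 over all 14213 tested genes. The quartiles of the 86 were -0.14 and -0.064. Of the 86, 79 were below 0 and 7 above, where 51.2% of all tested genes were below 0. In edgeR's quasi-likelihood test 0 of the 86 passed an adjusted p of 0.05, as did 0 of all genes (0%), and the smallest adjusted p among the 86 was 0.205. DESeq2, run as an alternative, called 0 of the 86 and 6.87% of all genes. At an unadjusted p under 0.05 in edgeR, 3 ribosomal protein genes were lower, against 11.7% of all genes, and 0 were higher, against 7.84%. Exact permutation of 3 libraries against 3 has 0.1 as its smallest two-sided p, so it was not used.

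Most ribosomal protein genes were highest in the same library, control 2. The share of all counts held by the 91 genes was 3.495%, 4.052% and 3.694% in controls 1, 2 and 3, and 3.597%, 3.468% and 3.497% in resveratrol 1, 2 and 3. These are means of 3.75% ± 0.282 in control and 3.52% ± 0.0677 in resveratrol (SD, n = 3), a log2 ratio of -0.09. Control 2 was the highest library and control 1 lay within the range of the resveratrol libraries, so the groups overlapped. Control 2 was the highest of the 6 libraries for 77 of the 86 genes, while the lowest was resveratrol 3 for 39, resveratrol 2 for 30 and control 1 for 12. The median deviation of the 86 genes from their own 6-library mean, on the scale log2(CPM + 0.5), was -0.041, 0.16 and 0.032 in controls 1 to 3 and 0.0048, -0.072 and -0.093 in resveratrol 1 to 3. CPM is the count scaled to the library total after TMM correction. Without control 2 the median fold change was -0.05, beside -0.0073 over all genes, 72 genes were below 0 and the log2 ratio of the shares was -0.03.

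**Figure D1:**
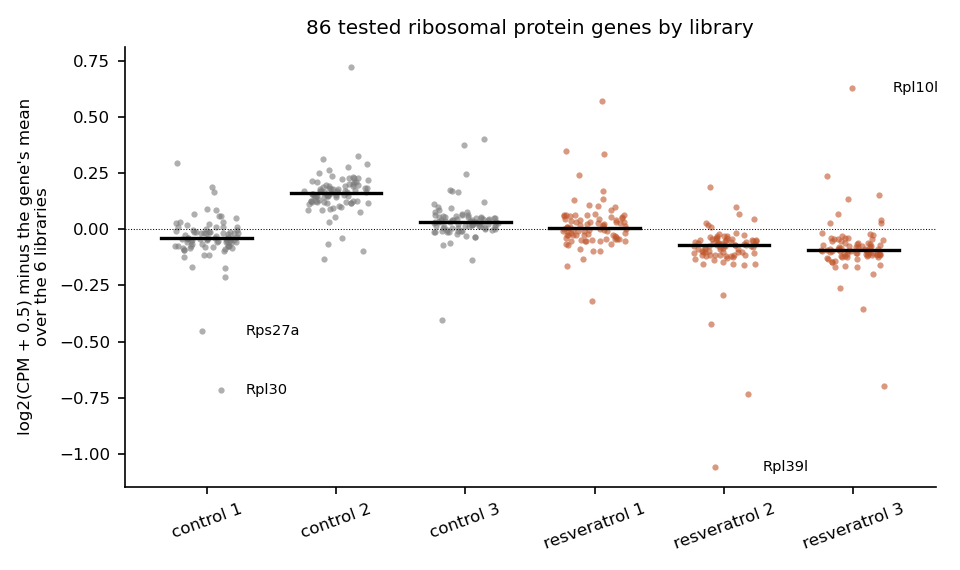
Each point is 1 of the 86 tested ribosomal protein genes in 1 library, as log2(CPM + 0.5) minus that gene's mean over the 6 libraries; bars are medians. The medians are -0.041, 0.16 and 0.032 in the control libraries and 0.0048, -0.072 and -0.093 in the resveratrol libraries, so control 2 stands highest and control 1 lies below resveratrol 1.

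Replicate 1 of each group has a sample description that ends in Sep, those of replicates 2 and 3 end in Oct, and no label explains the endings. Among the Oct libraries, 72 of the 86 genes were lower in both resveratrol libraries than in both control libraries, where 27.3% of all tested genes were. In the Sep pair the order was the other way for most: 60 of the 86 were higher in resveratrol 1 than in control 1 and 26 were lower, where 49.9% of all tested genes were higher. The median difference in that pair was 0.05 on the log2 scale, and in the Oct libraries alone the median fitted fold change was -0.18. edgeR on the Oct libraries alone gave 8 of the 86 genes as lower at an unadjusted p under 0.05, against 9.32% of all genes. The Sep pair has 1 library a group and gives no test. With the ending as a covariate in edgeR, the median was -0.10 over all 6 libraries.

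The small and the large subunit shared this pattern. Of the 36 tested small subunit genes 34 were below 0, with a median log2 fold change of -0.10, and of the 47 large subunit genes outside the stalk 42 were, with a median of -0.11. Small subunit genes held 1.40%, 1.64% and 1.49% of the counts in control and 1.45%, 1.40% and 1.42% in resveratrol. Large subunit genes with the stalk held 2.09%, 2.42% and 2.21% in control and 2.15%, 2.07% and 2.08% in resveratrol. In both subunits control 2 was highest and control 1 below resveratrol 1.

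**Figure D2:**
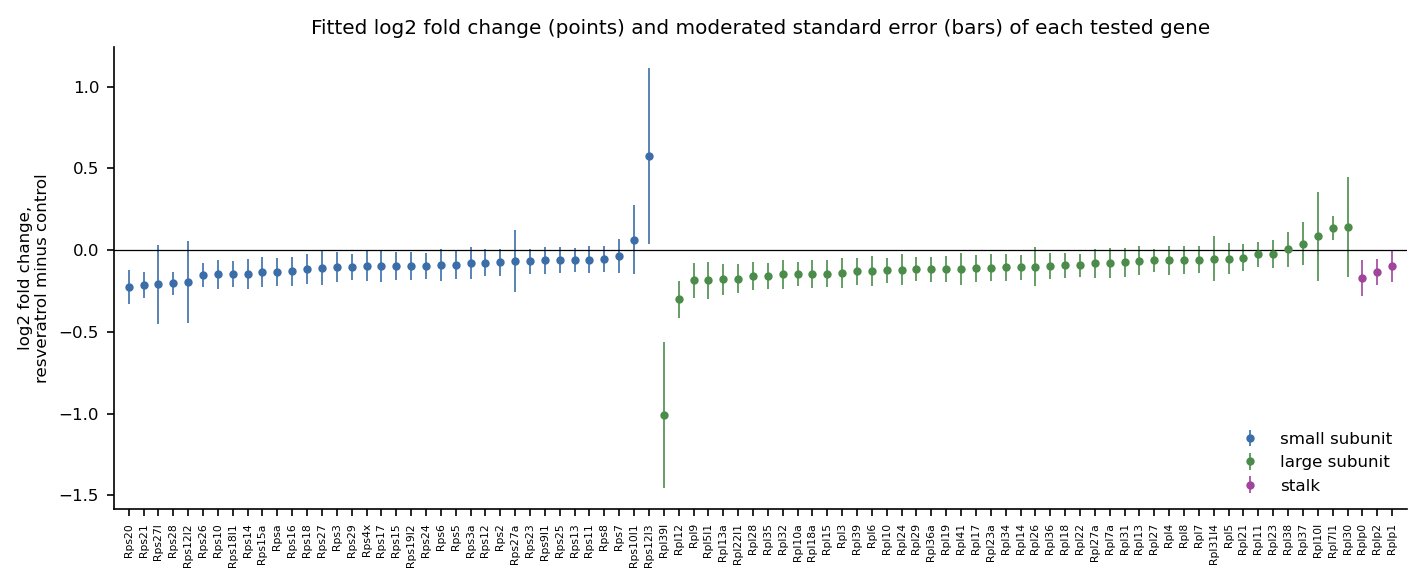
Fitted log2 fold changes of the 86 tested genes (points) with moderated standard errors (bars), ordered within the small subunit, the large subunit and the stalk. Nearly all points lie a little below 0; Rpl39l at -1.01 and Rps12l3 at 0.57 lie farthest out, both with long bars.

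The 3 stalk genes were all below 0, with none past the test. Rplp0, the stalk base, was at 1916, 2271 and 1991 CPM with saline and 1940, 1781 and 1773 CPM with resveratrol. Its log2 fold change was -0.17 ± 0.11 (moderated SE; edgeR adjusted p = 0.387). Control 1 lay between the resveratrol libraries, so the groups overlapped. The acidic proteins Rplp1 and Rplp2, which pair on Rplp0, had fold changes of -0.10 ± 0.10 and -0.13 ± 0.08, and their groups overlapped as well. Without control 2 the fold changes were -0.09 for Rplp0, -0.03 for Rplp1 and -0.07 for Rplp2. Rpsa, at the messenger RNA exit of the small subunit, was at 1158, 1282 and 1174 CPM with saline and 1143, 1061 and 1089 CPM with resveratrol, a fold change of -0.13 ± 0.09 (edgeR adjusted p = 0.411). Every control value of Rpsa was above every resveratrol value, though resveratrol 1 and control 1 lay close together, and without control 2 its fold change was -0.09.

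The groups did not overlap for 17 genes that were lower in resveratrol, 19.8% of the 86, where 14.4% of all tested genes were lower without overlap. Those with the smallest p were Rps28, Rps21 and Rpl12. Rps28, a small protein near the messenger RNA exit, was at 155, 173 and 162 CPM with saline and 143, 139 and 144 CPM with resveratrol. The 3 resveratrol values lay close together and below all controls, and the fold change was -0.20 ± 0.07 (edgeR adjusted p = 0.205). Rps21, also of the small subunit, was at 135, 157 and 141 CPM with saline and 127, 120 and 125 CPM with resveratrol, a fold change of -0.22 ± 0.08 (edgeR adjusted p = 0.221). Rpl12, a large subunit protein next to the stalk base, was at 408, 473 and 421 CPM with saline and 355, 397 and 305 CPM with resveratrol, a fold change of -0.30 ± 0.11 (edgeR adjusted p = 0.223). Resveratrol 2 came close to control 1 for Rpl12, while resveratrol 3 was well below, and without resveratrol 3 its fold change was -0.20. Rps20, of the head of the small subunit, was at 352, 449 and 374 CPM with saline and 348, 325 and 332 CPM with resveratrol, a fold change of -0.23 ± 0.10 (edgeR adjusted p = 0.287), and its highest resveratrol value was just under its lowest control. Without control 2 the fold change of Rps20 was -0.12. Without control 1 the number of genes without overlap and lower was 45, where 20.2% of all tested genes were. Without resveratrol 1 it was 47, where 20.4% of all were.

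The only ribosomal protein gene without overlap and higher in resveratrol was Rpl7l1, 1.16% of the 86, where 12.2% of all tested genes were higher without overlap. Rpl7l1 is a paralog of Rpl7 and was at 105, 99.9 and 109 CPM with saline and 112, 111 and 122 CPM with resveratrol, a fold change of 0.14 ± 0.07 (edgeR adjusted p = 0.365). Per length, Rpl7l1 stood at 4.555% ± 0.385 of the FPKM of Rpl7 in control and 5.203% ± 0.428 in resveratrol (SD, n = 3). At 2500 bases it was the longest of the 86.

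**Figure D3:**
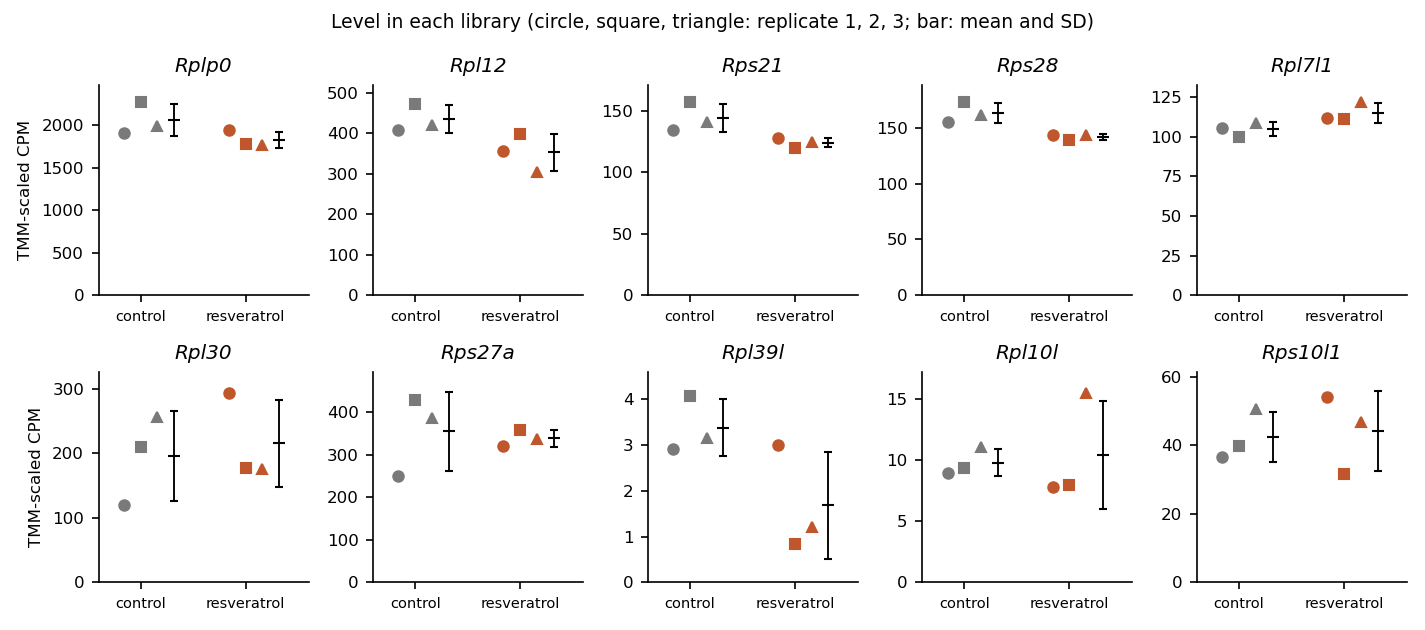
TMM-scaled CPM of 10 ribosomal protein genes in each library, with axes from 0; circles, squares and triangles are replicates 1, 2 and 3, and bars are mean and SD (n = 3). Rps28 and Rps21 show 3 close resveratrol values below the controls, while Rpl30, Rps27a, Rpl39l and Rpl10l each have libraries far from the others of their group.

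At the median, the ribosomal protein genes varied somewhat less between libraries of a group than other abundant genes, although control 2 stood apart. Among genes of at least 100 CPM, the median within-group SD on the log2 scale was 0.0898 for 75 ribosomal protein genes and 0.119 for 1813 others. The lower quartiles were close, at 0.0771 and 0.0782, and the upper ones were 0.107 and 0.195. Beyond that floor the genes were not matched for level. Rpl30, a large subunit protein, had the highest value of the 75, 0.499. It was at 120, 210 and 257 CPM with saline and 294, 178 and 176 CPM with resveratrol. Its lowest and highest values were thus both in replicate 1, the fold change was 0.14 ± 0.31 (edgeR adjusted p = 0.827), and in the Oct libraries alone it was -0.40. Rps27a, which is made as a fusion with ubiquitin, was at 250, 429 and 387 CPM with saline and 320, 358 and 338 CPM with resveratrol. Control 1 was the lowest library for Rps27a and control 2 the highest, and the fold change was -0.07 ± 0.19 (edgeR adjusted p = 0.865), or 0.09 without control 2.

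Of the 13 tested genes with an l suffix, 9 were below 0 and 4 above (median -0.10), beside 70 below 0 of the 73 with plain symbols (median -0.10). Rpl39l, a paralog of Rpl39 known from male germ cells, had the most negative fold change of all 86, -1.01 ± 0.45 (edgeR adjusted p = 0.282). It was at 2.90, 4.08 and 3.16 CPM with saline and 3.00, 0.832 and 1.21 CPM with resveratrol. Resveratrol 1 lay among the controls and only resveratrol 2 and 3 were lower. Without resveratrol 2 the fold change was -0.68, and without resveratrol 1 it was -1.72. Rpl39l stood at 1.23% ± 0.115 of the FPKM of Rpl39 in control and 0.666% ± 0.439 in resveratrol.

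Rpl22l1, a paralog of Rpl22 that is known to bind RNA as Rpl22 does, was the most abundant paralog relative to its parent among those compared. It reached 35.6% ± 1.70 of the FPKM of Rpl22 in control and 33.7% ± 0.151 in resveratrol (SD, n = 3). In CPM it was at 61.8, 73.9 and 64.0 in control and 60.6, 59.3 and 57.0 in resveratrol, without overlap, with a fold change of -0.18 ± 0.09 (edgeR adjusted p = 0.319), which was -0.09 without control 2. Rps27l, a p53-responsive paralog of Rps27, was at 39.7, 35.5 and 39.1 CPM with saline and 37.3, 20.6 and 41.0 CPM with resveratrol. Resveratrol 2 alone was low for Rps27l, and without that library its fold change went from -0.21 to 0.04. Rpl10l, a testis-expressed paralog of Rpl10, was at 8.97, 9.33 and 11.1 CPM with saline and 7.76, 7.92 and 15.5 CPM with resveratrol. Resveratrol 3 alone was high for Rpl10l, and without it the fold change went from 0.08 to -0.31.

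Apart from Rps10l1, the remaining paralogs had fold changes near those of the plain genes or carried few counts. Rps18l1 (-0.15 ± 0.08) and Rpl5l1 (-0.18 ± 0.11) were lower without overlap, and Rps12l2 (-0.20 ± 0.25), Rpl31l4 (-0.05 ± 0.14), Rps19l2 (-0.10 ± 0.08) and Rps9l1 (-0.06 ± 0.08) overlapped. Rps4x, the X-linked form of a small subunit protein, had a fold change of -0.10 ± 0.09 with overlap. Rps10l1, which RefSeq lists as a pseudogene, was at 36.7, 39.8 and 50.6 CPM with saline and 54.3, 31.6 and 46.8 CPM with resveratrol. Its fold change was 0.06 ± 0.21, with no order between the groups. Rps12l3 had the highest fold change of the 86, 0.57 ± 0.54, and rests on 10, 11 and 3 counts in control and 15, 14 and 8 in resveratrol; without control 3 it was 0.18.

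Ribosomal protein genes are short, and fold changes in this data set moved with gene length. Gene length, recovered from the ratio of count to FPKM, had a median of 679.5 bases for the 86 genes and 3102 bases for all tested genes. Among the shortest 10% of tested genes, 192 to 1167 bases, the 78 ribosomal protein genes had a median log2 fold change of -0.10 and the 1344 other genes one of -0.09. Below 0 were 72 of the 78 ribosomal protein genes and 67.8% of the others. Among the longest 10% of genes 39.9% were below 0 and the median was 0.06. A smooth trend on length, fitted over all tested genes with these 86 among them, was then removed. The median of the 86 ribosomal protein genes became -0.01. Below 0 were 52 of the 86 instead of 79, where 49.3% of all tested genes were below 0. With the trend removed, the fold change of Rps28, 339 bases long, was -0.08 in place of -0.20. That of Rps21, at 345 bases, was -0.09 in place of -0.22, that of Rps20 was -0.12 in place of -0.23, and that of Rpl12, at 1151 bases, was -0.24 in place of -0.30.

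**Figure D4:**
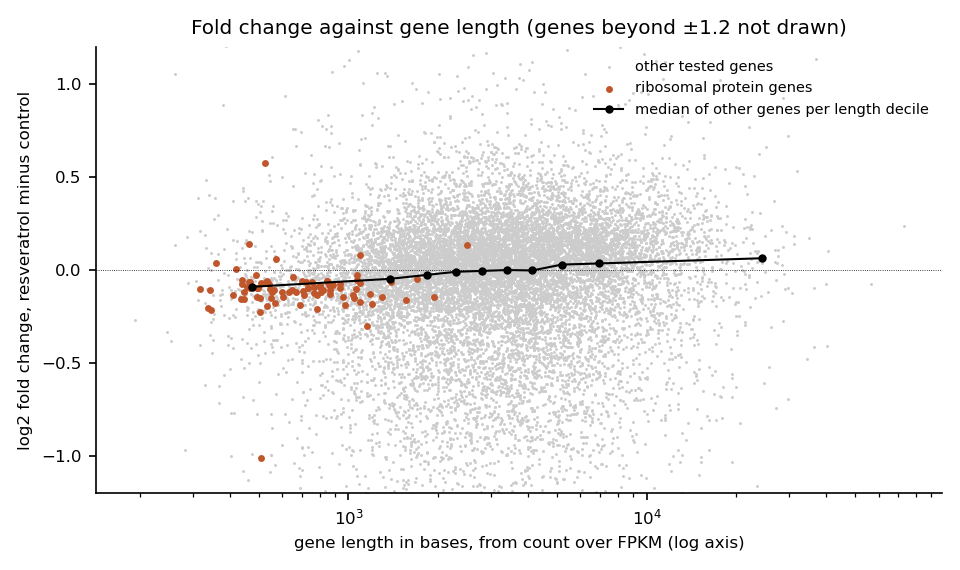
Log2 fold change of each tested gene against gene length in bases (log axis); orange points are the ribosomal protein genes, gray points other genes within 1.2 of 0, and the black line joins the medians of the other genes in 10 length classes. The line climbs from -0.09 in the shortest class to 0.06 in the longest, and the ribosomal protein genes lie close to it at the short end.

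The 2 groups of genes most like these, other sets of short genes for protein complexes, are given beside them without a test of the difference. Of 74 tested mitochondrial ribosomal protein genes, which build the separate ribosome of the mitochondrion, 34 were below 0 and 40 above, with a median of 0.03. Of 74 tested oxidative phosphorylation genes, the respiratory chain and ATP synthase subunits, 58 were below 0, with a median of -0.06. With the length trend removed these medians were 0.09 and 0.02, beside -0.01 for the cytosolic ribosomal protein genes. The median gene length was 1117 bases in the first and 669 bases in the second.

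A list of translation partners and other TOP messenger RNAs also had mostly negative fold changes. It holds genes outside the translation machinery, such as Vim, Hnrnpa1 and Snrpd2. Of 23 tested genes on this list 17 were below 0, with a median of -0.06, and with the length trend removed 15 were, with a median of -0.02. At an unadjusted p under 0.05 in edgeR 1 was lower, against 11.7% of all genes, and DESeq2 called 1, Vim, against 6.87%. Fau, which encodes the small subunit protein Rps30 fused to a ubiquitin-like protein and so falls outside the symbol rule, was at 305, 348 and 324 CPM with saline and 292, 295 and 288 CPM with resveratrol, a fold change of -0.16 ± 0.07 (edgeR adjusted p = 0.311). The elongation factors Eef1a1 (-0.09 ± 0.13) and Eef2 (-0.15 ± 0.15), which deliver transfer RNA and move the ribosome along, overlapped between the groups. Vim, the intermediate filament of fibroblasts and other mesenchymal cells, is also a TOP messenger RNA, and was at 1028 ± 200 CPM with saline and 615 ± 122 CPM with resveratrol (SD, n = 3), a fold change of -0.74 ± 0.18 (edgeR adjusted p = 0.127, DESeq2 adjusted p = 0.00732).

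A list of the TOR pathway and regulators of TOP translation also holds genes outside that pathway, such as Myc, Yy1 and Gabpa. It includes genes that hold TOR activity down, such as Castor1, so its counts give no direction for the pathway. Of its 29 tested genes, 21 were above 0, with a median of 0.08. At an unadjusted p under 0.05 in edgeR 9 were higher, against 7.84% of all genes, and 1 was lower, against 11.7%. These are longer genes, with a median length of 3472 bases, and with the length trend removed their median was 0.10. Larp1, which binds TOP messenger RNAs, was at 191, 181 and 211 CPM with saline and 257, 245 and 280 CPM with resveratrol. All resveratrol values of Larp1 were above all controls, with a fold change of 0.42 ± 0.09 (edgeR adjusted p = 0.116, DESeq2 adjusted p = 0.00366). Castor1, an arginine sensor that holds TOR complex activity down, was at 27.9, 25.7 and 26.5 CPM with saline and 21.4, 18.5 and 18.9 CPM with resveratrol, without overlap (-0.45 ± 0.10, edgeR adjusted p = 0.118, DESeq2 adjusted p = 0.00814). Eif4g1, the scaffold of the cap-binding complex, had a fold change of 0.22 ± 0.07 (edgeR adjusted p = 0.174, DESeq2 adjusted p = 0.0327), and Mxd1, an antagonist of Myc, one of -0.03 ± 0.10. DESeq2 called 4 genes of this list, against 6.87% of all genes, the fourth being Larp4 (0.41 ± 0.11), named after its values were seen.

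Of the 10 kinases named for the ribosomal protein Rps6, which the symbol rule leaves out, 6 were above 0 (median 0.12) and DESeq2 called 0. Rps6kb1, the kinase downstream of TOR that phosphorylates Rps6, was at 44.8, 40.9 and 45.1 CPM with saline and 51.4, 50.9 and 51.4 CPM with resveratrol, without overlap, a fold change of 0.23 ± 0.08 (edgeR adjusted p = 0.17). Rps6ka3 (0.16 ± 0.07) did not overlap either. Rps6kb2, the other S6 kinase downstream of TOR and named after its values were seen, was at 24.17, 22.01 and 20.56 CPM with saline and 18.8, 20.5 and 18.0 CPM with resveratrol, lower without overlap (-0.22 ± 0.11, edgeR adjusted p = 0.299). Rps6ka1 (0.18 ± 0.11) and Rps6ka4 (0.09 ± 0.08), members of the RSK and MSK kinases, overlapped.

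Genes that import ribosomal proteins into the nucleus, mature the subunits or respond to unassembled ribosomal proteins were mostly above 0. Of 22 tested 20 were, with a median of 0.15, which stayed at 0.15 with the length trend removed, and 3 were higher at an unadjusted p under 0.05 in edgeR, against 7.84% of all genes. DESeq2 called 2 of the 22, against 6.87% of all genes, named after their values were seen. Ipo7, an import receptor for Rpl5 and Rpl11, was at 93.8, 95.0 and 102 CPM with saline and 124, 113 and 119 CPM with resveratrol, and Pno1, a maturation factor of the small subunit, at 21.0, 19.5 and 22.5 CPM with saline and 25.5, 30.6 and 32.4 CPM with resveratrol. Both were higher in every resveratrol library, with fold changes of 0.29 ± 0.07 (edgeR adjusted p = 0.132) and 0.49 ± 0.12 (edgeR adjusted p = 0.126).

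**Figure D5:**
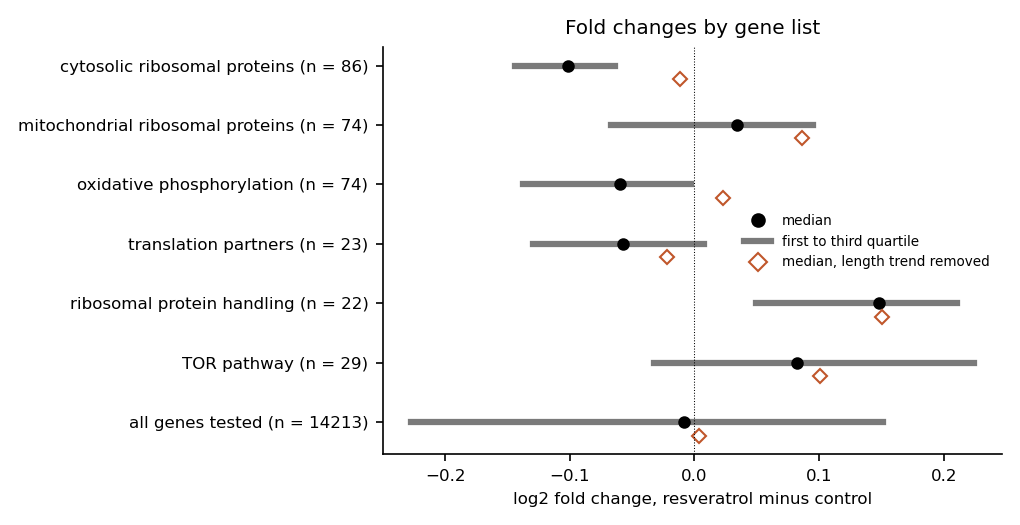
Median log2 fold change of each gene list (black points) with its quartiles (gray bars), and the median with the length trend removed (open diamonds). The cytosolic ribosomal protein genes have a median of -0.10, and of -0.01 with the trend removed; the handling genes stay at 0.15 in both.

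The fold changes were also set beside the pyrimidine run at the start site. The 37 tested genes with a run of at least 8 bases and the 26 without it both had a median log2 fold change of -0.11. Of the genes printed above, Rps28, Rps21 and Rpl12 were picked for their small p and Rpl37 for a value above 0. Their fold changes therefore do not bear on the run. Rps28 and Rps21 had counted runs, that of Rpl12 (-0.30 ± 0.11) was too short at 7 bases, and that of Rpl37 (0.04 ± 0.13) had 11.

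The tissue label was checked against markers. Krt12, the keratin of corneal epithelium, was between 31840 and 37570 CPM in all libraries. Summed markers of corneal epithelium were at 83820 to 92990 CPM with saline and 83030 to 97120 CPM with resveratrol, with 1 of 7 genes lower on average in resveratrol. All 5 stromal markers were lower on average in resveratrol, 10120 to 14520 CPM with saline against 7151 to 9830 CPM in sum. Kera, Lum and Dcn overlapped between the groups, while Col1a1 and Col5a1 did not. All 8 leukocyte markers were lower on average, 536 to 1258 CPM against 328 to 531 CPM in sum. Ptprc, Itgam, Lyz2 and Cd8a among them overlapped. All 4 vessel markers were lower without overlap, 297 to 435 CPM against 183 to 246 CPM in sum. Of the 3 markers of corneal endothelium 2 were lower on average in resveratrol. Slc4a11 was higher, at 7.88 ± 1.63 CPM with saline and 11.65 ± 3.41 CPM with resveratrol (SD, n = 3), with overlap. All 3 endothelial markers summed to 179, 264 and 186 CPM with saline and 163, 164 and 166 CPM with resveratrol. Their sum, like the ribosomal protein share, was highest in control 2, as were Col8a1 and Col8a2 singly. Slc4a11 went the other way and was lowest in control 2, at 6.37 CPM. The sums of the stromal, leukocyte and vessel markers were highest in control 1. Lens markers reached at most 5.61 CPM in sum, and of the 3 listed muscle markers Acta1 and Myh2 were at or near 0 while Des was at 17.5, 9.66 and 9.52 CPM with saline and 6.64, 7.57 and 4.03 CPM with resveratrol, lower without overlap. In bulk tissue, fewer cells of a type and less RNA per cell cannot be told apart, and the part of these shifts in the ribosomal protein values was not tested.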

How the data were processed

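RNA from the corneas was sequenced as 150-base paired-end reads, per the labels' protocols. Per the file headers, the authors deposited a table of raw counts and a table of FPKM, each with 17771 genes. The submitters' processing notes name the build mRatBN7.2, R 3.2.0 and DESeq2 without saying what each was used for. The sources used here do not name the aligner or counter, the strand setting or the treatment of shared reads. Total counts per library were 35068936 to 37460756. No 2 libraries were alike within counting noise (their chi-square over its degrees of freedom was 32.4 or more).

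Counts were filtered with filterByExpr (14213 genes kept; the rest held 0.0237% of counts), scaled by TMM and tested with edgeR 4.0.16 (quasi-likelihood, resveratrol against control, no covariate, Benjamini-Hochberg threshold 0.05) in R 4.3.3. Standard errors are from limma 3.58.1 (trend, prior count 2), moderated over all genes. Adjusted p-values of DESeq2 1.42.0 exist for 14666 genes. Gene length was worked out from the ratio of count to FPKM and the library total, which came to a whole number of bases within 0.01 for 99.99% of genes; its trend was a lowess of span 0.3. The code was tested on simulated counts. Start-site sequences and motif counts are from RefSeq's GRCr8 promoters.

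Named ribosomal protein genes are the 6 highest in FPKM, the 6 highest and 6 lowest fold changes, the 6 smallest p, the stalk genes, Rpsa, Rps27a, and all with a paralog suffix or not tested. Named genes of the partner, TOR and kinase lists are the 2 most expressed and the 2 with the smallest p. The genes and lists were chosen with earlier results of these data known. No p is given for a list. Alternatives were other scalings, filters, tools, units, thresholds and members, the Sep or Oct ending, the replicate number as a block, removal of the length trend and leaving out each library.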

Additional observations from a re-analysis of the deposited data

How the results depend on the processing

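The median log2 fold change of the ribosomal protein genes stayed below 0 in all alternatives run, from -0.18 in the Oct libraries alone to -0.011 with the length trend removed, which left 52 genes below 0. The Oct libraries alone gave 8 genes lower at an unadjusted p under 0.05, against 9.32% of all genes. Leaving out a library gave 0 to 6, and the share of all genes was not worked out there (11.7% with all 6 libraries). The number lower without overlap was 17 to 47 of the 86 without a library. It was 17 to 21 without control 2, control 3, resveratrol 2 or resveratrol 3, where the share of all genes was not worked out. It was 45 without control 1 and 47 without resveratrol 1, where 20.2% and 20.4% of all tested genes were. Over all genes DESeq2 called 1007, and edgeR 0 to 21 without a library (21 without control 3, 1 without resveratrol 2). No label states that the replicate numbers pair the samples. Correlations of deviations were 0.0164, -0.000135 and -0.0173 for same-numbered libraries and -0.0226 to 0.0269 for the others. These are too alike to decide whether the numbers mark pairs. With the replicate block the median was -0.10 and edgeR called 0 genes. There 2 ribosomal protein genes were lower at an unadjusted p under 0.05, and the share of all genes was not worked out.

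Of 559 alternative values of 28 named genes, 16 over 10 genes had the other sign, none past the threshold (smallest adjusted p = 0.173 over all tools and settings). With the length trend removed Rplp1 was at 0.0069, Rps29 at 0.023, Rpl31l4 at 0.058 and Rps9l1 at 0.024. In the Oct libraries alone Rpl30 was at -0.40, Rps10l1 at -0.20 and Rpl37 at -0.054. Without a library the range was -0.39 to 0.039 for Rps27l, -0.14 to 0.39 for Rpl30, -0.31 to 0.26 for Rpl10l, -0.11 to 0.26 for Rps10l1, -0.032 to 0.10 for Rpl37, -0.14 to 0.068 for Rpl31l4 and -0.26 to 0.088 for Rps27a. The cause was not tested. The median log2 fold change of -0.10 stood beside a spread between libraries of the median deviation of 0.081 (pooled SD, log2). On that scale control 1 lay below resveratrol 1. Counting error is largest for paralogs such as Rps12l3.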

Other observations

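Some genes with a ribosomal protein name fall outside the symbol rule. Rps4y2, a homolog of Rps4x with a Y-linked name, was at 9.055, 11.02 and 10.03 CPM with saline and 14.0, 15.6 and 13.5 CPM with resveratrol. Every resveratrol value was above every control value, and the log2 fold change was 0.52 ± 0.13 (edgeR adjusted p = 0.126, DESeq2 adjusted p = 0.0109), whereas Rps4x had one of -0.10 ± 0.09. Rps4y2 was named after its values were seen, and reads it may share with Rps4x were not resolved. Rpl36al, at 78.85 ± 3.997 CPM with saline and 80.5 ± 4.77 CPM with resveratrol (SD, n = 3), and Rpl35al1, at 81.8 ± 1.04 and 77.5 ± 3.55 CPM, overlapped between the groups. Rplp0l1 and Rps15al2 did not pass the filter on low counts. Rack1, a scaffold protein on the small subunit, had a fold change of -0.11 ± 0.09 and overlapped.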
